A study of Mus musculus with 6 samples.

Results

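The proteasome subunit genes of mouse were taken as all genes in the count table whose symbol is Psm, a letter from a to g and a number, which gave 48 of 23159 genes. They were compared between label-retaining chondrocytes (LRCs), the slow-cycling cells that kept a nuclear green label, and non-LRCs, which had diluted it. Both groups came from the same mice, which were homozygous for every allele: Peli2(Col2a1-tTA/Col2a1-tTA) as the driver of the label, R26R(tdTomato/tdTomato) as the red reporter, Col1a1(TRE-H2B-GFP/TRE-H2B-GFP) as the nuclear label and Col2a1-creER/Col2a1-creER as the inducible recombinase. The Col2a1 promoter, active in chondrocytes, thus drives both colours. All mice received doxycycline from day 21 to day 49 after birth to stop label synthesis and tamoxifen on days 46 and 47 to switch on tdTomato, and were taken at day 49. Growth plate cells of femur and tibia were pooled from littermates and sorted, so that LRCs are the tdTomato+ cells with the brightest label and non-LRCs those with a middle to low label. There were 3 libraries per group, numbered by experiment, with RNA of about 10000 LRCs or 50000 non-LRCs in each.

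The 26S proteasome is the protease that degrades most ubiquitin-tagged proteins of the cell. Its 20S core is a barrel of stacked rings, with outer rings of alpha subunits that gate the entrance and inner rings of beta subunits, of which Psmb5, Psmb6 and Psmb7 encode the catalytic ones. The 19S particle caps the barrel: its base holds the ATPases that unfold the substrate, and its lid removes the ubiquitin chain. In immune cells and after interferon, Psmb8, Psmb9 and Psmb10 encode catalytic subunits that replace the constitutive ones. Because all subunits are needed in fixed proportions, their genes are known for being expressed together.

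Library totals ranged from 18943789 counts (LRC experiment 2) to 129559872 counts (LRC experiment 1), and the 48 genes took between 0.227% and 0.455% of the counts of a library. Levels are given as CPM, counts scaled to library size with edgeR's TMM factors. Genes are compared with each other only on CPM per 1000 bases of the principal transcript. The 8 chondrocyte markers were high in all libraries, with summed levels of 80417 to 223312 CPM in LRCs and 132570 to 229744 CPM in non-LRCs. At an unadjusted p below 0.05 in edgeR, 3 of them (Comp, Matn3 and Hapln1) were lower in LRCs, beside 9.53% of all genes. Sox9 alone had a fitted value above 0 (log2 fold change 0.46, edgeR unadjusted p = 0.0507). Of the 4 endothelial markers, Cdh5, Kdr and Emcn had 0 counts in all 6 libraries and Pecam1 had 0 to 43, the list summing to 0 to 0.573 CPM in LRCs and 0.0774 to 0.681 CPM in non-LRCs. Ptprc, the pan-leukocyte marker, had 10 counts in 1 LRC library and 0 in the other libraries, and the 8 leukocyte markers summed to 17.1 to 53.9 CPM in LRCs and 17.4 to 24.4 CPM in non-LRCs. All 6 hypertrophic markers had fitted values below 0. Their summed level ran from 232 to 605 CPM in LRCs and from 604 to 1871 CPM in non-LRCs. In experiment 1, however, Mmp13 and Ibsp were higher in LRCs (log2 difference 1.08 and 0.67). The 5 superficial articular or synovial markers summed to 1298 to 2336 CPM in LRCs and 236 to 400.2 CPM in non-LRCs. Of these, Prg4, Thbs4 and Clu were higher at an edgeR adjusted p below 0.05 (log2 fold change 5.75, 2.83 and 3.64), beside 0.903% of all genes. Vit (0.11) and Cd55 (-0.15) did not pass. The 5 osteoblast markers summed to 107 to 194 CPM in LRCs and 94.9 to 142 CPM in non-LRCs. Col1a1 was higher in LRCs (log2 fold change 2.38, edgeR adjusted p = 0.0151), beside 0.903% of all genes. Bglap, Bglap2 and Sp7 were lower at an unadjusted p below 0.05, beside 9.53% of all genes. Dmp1 had 444, 66 and 271 counts in LRCs and 0, 70 and 77 in non-LRCs of experiments 1 to 3. Its log2 fold change was 2.94 (95% interval -1.44 to 7.31). The part of these cells in the results on the proteasome was not tested. In such bulk samples, fewer cells of a type and less RNA per cell cannot be told apart.

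The genes of the 20S core had lower values in LRCs, while those of the 19S cap lay closer to 0. The 14 genes of the constitutive core (Psma1 to Psma7 and Psmb1 to Psmb7) all had a fitted log2 fold change below 0, from -0.81 to -0.31, with a median of -0.66. The median was -0.21 over the 17 genes of the 19S base and lid, -0.35 over the 47 members tested and -0.10 over all 13728 genes tested. No member passed edgeR's quasi-likelihood test with experiment as a block at a Benjamini-Hochberg adjusted p below 0.05, beside 0.379% of all genes that passed as lower and 0.903% as higher. At an unadjusted p below 0.05, 19 of the 47 members were lower in LRCs, beside 9.53% of all genes, and 1 member (Psmf1) was higher, beside 8.89%. Of those 19, 12 belonged to the constitutive core and 2 to the base and lid. The 20 members at this threshold, beside 2529 of all genes, became 6 without the block, beside 1289. They became 9 without experiment 1, beside 1564 of all genes, and 7 without experiment 3, beside 1729. The same design in DESeq2 called 13 members lower at an adjusted p below 0.05, beside 6.15% of all genes with an adjusted p, and 0 members higher, beside 6.16%. Limma-voom also called 13 members lower, beside 4.69% of all genes, and 0 higher, beside 5.22%. Those called by DESeq2 were Psma1, Psma2, Psma3, Psma4, Psma7, Psmb2, Psmb3, Psmb4, Psmb5, Psmb7, Psmd10, Psmd14 and Psmg1.

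Among genes of up to 4000 bases, these differences moved with transcript length. The median principal transcript was 1162.5 bases long in the constitutive core, 1636 bases in base and lid and 3014 bases over all genes tested, and the 739 tested genes of up to 1000 bases had a median log2 fold change of -0.54. The 5 core genes in that length range, with 3 other members, had a median of -0.68. Between 1000 and 1500 bases the median was -0.32 over 1239 genes and -0.42 over 16 members, from 1500 to 2500 bases -0.16 over 3182 genes and -0.26 over 12 members, and from 2500 to 4000 bases -0.07 over 4047 genes and -0.15 over 8 members. Of the 3 members above 4000 bases, Psmd5 (-0.51) and Psme4 (-0.56) lay below 0 and Psmb11 (0.73) above it. Their median was -0.51, beside 0.06 over 4359 genes. With offsets for GC content and length in the same blocked fit, the median of the constitutive core was -0.26, with 11 of 14 genes below 0, and that of base and lid 0.00, with 8 of 17 below 0. The median of all members was then -0.17, beside -0.05 over all genes, and at an unadjusted p below 0.05 7 members were lower, beside 7.24% of all genes, and 2 were higher, beside 8.22%. The sign of 10 members turned from below to above 0. The part of length in the lower values was not tested beyond this fit.

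**Figure D1:**
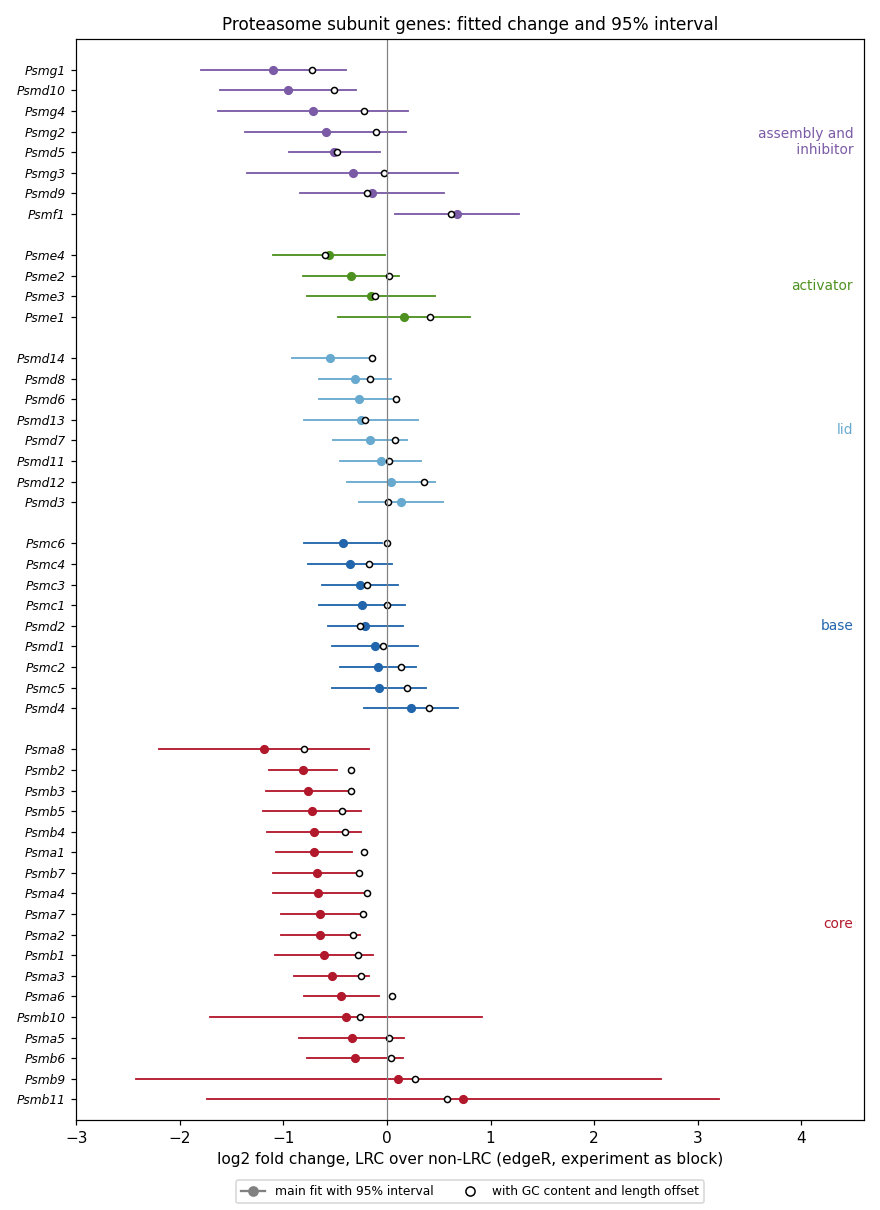
Fitted log2 fold changes (LRC over non-LRC, x axis) of the 47 members tested, with 95% intervals, grouped by module, and with open circles for the fit with GC content and length offsets. The 14 genes of the constitutive core lie between -0.81 and -0.31 in the main fit, and most open circles lie closer to 0 than the filled ones.

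**Figure D2:**
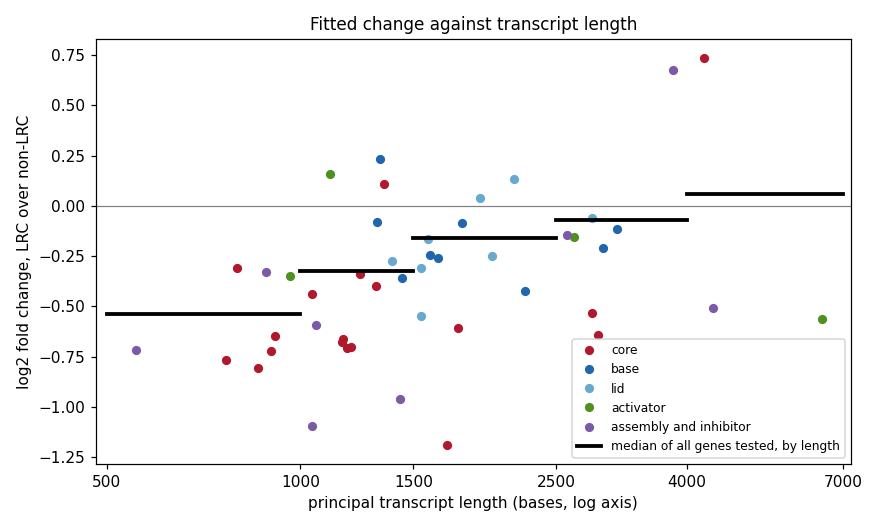
Fitted log2 fold change against the length of the principal transcript (log axis) for the 47 members, with black bars for the median of all genes tested in 5 length ranges. The bars rise from -0.54 for transcripts of up to 1000 bases to 0.06 above 4000 bases, and most core genes lie on the left, below the bars.

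The alpha ring shapes and gates the entrance of the barrel. All 7 of its constitutive genes had values below 0, from -0.70 (Psma1) to -0.34 (Psma5), of which Psma5 and Psma6 turned to 0.02 and 0.05 with the offsets, and 6 of them were lower in LRCs in all 3 experiments. Across the members, 26 of 47 were lower in all 3 experiments, beside 26.0% of all genes, and 2 were higher in all 3, beside 20.4%. Psma1, which DESeq2 called, measured 47.3, 96.0 and 70.7 CPM in LRCs of experiments 1 to 3 and 84.8, 135 and 121 CPM in non-LRCs. Every LRC library was below its own partner, but LRCs of experiment 2 exceeded non-LRCs of experiment 1. Its log2 fold change was -0.70 (95% interval -1.07 to -0.34, edgeR adjusted p = 0.0854), and -0.23 with the GC content and length offsets. The exception among alpha genes was Psma5, whose LRC level in experiment 2 (58.4 CPM) was above its partner (53.6 CPM).

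Psma8 encodes an alpha subunit known from male germ cells, where it takes the place of Psma7. It had the lowest fitted value of all members, on a low level: 2.87, 3.06 and 3.82 CPM in LRCs and 7.68, 5.97 and 8.59 CPM in non-LRCs of experiments 1 to 3. The groups did not overlap. Its log2 fold change was -1.19 (95% interval -2.20 to -0.17, edgeR adjusted p = 0.213). Per length it stood at 4.38 ± 0.787 in non-LRCs, beside 103 for Psma7 (SD, n = 3), on the scale of CPM per 1000 bases.

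The 4 beta subunits without a proteolytic site, encoded by Psmb1 to Psmb4, complete the inner rings. Their genes had a median of -0.74, and all 4 were lower in all 3 experiments. Psmb2 (chr4:126677630-126709714 in GRCm38, plus strand) had the lowest edgeR p of all members and measured 63.0, 104 and 94.5 CPM in LRCs and 112, 176 and 169 CPM in non-LRCs of experiments 1 to 3. All LRC libraries were below all non-LRC libraries, and the difference within each experiment was nearly the same on the log2 scale (-0.82, -0.76 and -0.84). Its log2 fold change of -0.81 (SE 0.13, 95% interval -1.14 to -0.48) missed the threshold in edgeR (adjusted p = 0.0578) and passed it in DESeq2 (adjusted p = 2.58e-05). With the offsets it was -0.35 (edgeR adjusted p = 0.313). Per length, Psmb2 had the highest mean level of all members in non-LRCs, at 177 CPM per 1000 bases, beside 128 for Psmb6.

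Psmb3 measured 26.3, 51.8 and 39.2 CPM in LRCs and 41.6, 84.0 and 75.4 CPM in non-LRCs of experiments 1 to 3. Each LRC library was below its partner, and the groups overlapped through non-LRCs of experiment 1. Psmb3 had a log2 fold change of -0.77 (95% interval -1.16 to -0.37, edgeR adjusted p = 0.0844), and -0.34 with the offsets. Stretches of at least 50 bases with at least 95% identity to other genes covered 80.7% of its principal transcript, so that its reads are uncertain.

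Of the constitutive catalytic subunits, the genes for the chymotrypsin-like (Psmb5) and trypsin-like (Psmb7) activities were lower in LRCs in each experiment, and the gene for the caspase-like activity (Psmb6) was not. Psmb5 measured 21.8, 47.8 and 33.5 CPM in LRCs and 40.6, 61.4 and 62.9 CPM in non-LRCs of experiments 1 to 3. Only LRCs of experiment 2 reached into the range of non-LRCs. Psmb5 had a log2 fold change of -0.72 (95% interval -1.20 to -0.25, edgeR adjusted p = 0.131), and -0.44 with the offsets. A copy, Gm3375, shares 796 of its 899 bases at 98.9% identity. Psmb7 measured 27.7, 49.6 and 40.3 CPM in LRCs and 52.4, 77.7 and 55.4 CPM in non-LRCs. Its groups did not overlap, and its log2 fold change was -0.67 (95% interval -1.10 to -0.25, edgeR adjusted p = 0.124), and -0.27 with the offsets. Psmb6 measured 55.0, 118 and 78.9 CPM in LRCs and 70.4, 110 and 126 CPM in non-LRCs. In experiment 2 the LRC library was the higher of its pair. The log2 fold change was -0.31 (95% interval -0.77 to 0.15, edgeR adjusted p = 0.441), and 0.04 with the offsets. Over all members tested, all LRC libraries were below all non-LRC libraries for 6 genes (Psma8, Psmb2, Psmb7, Psmd10, Psme4 and Psmg1), beside 10.3% of all genes, and above them for 2 (Psmf1 and Psmb11), beside 8.40%.

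**Figure D3:**
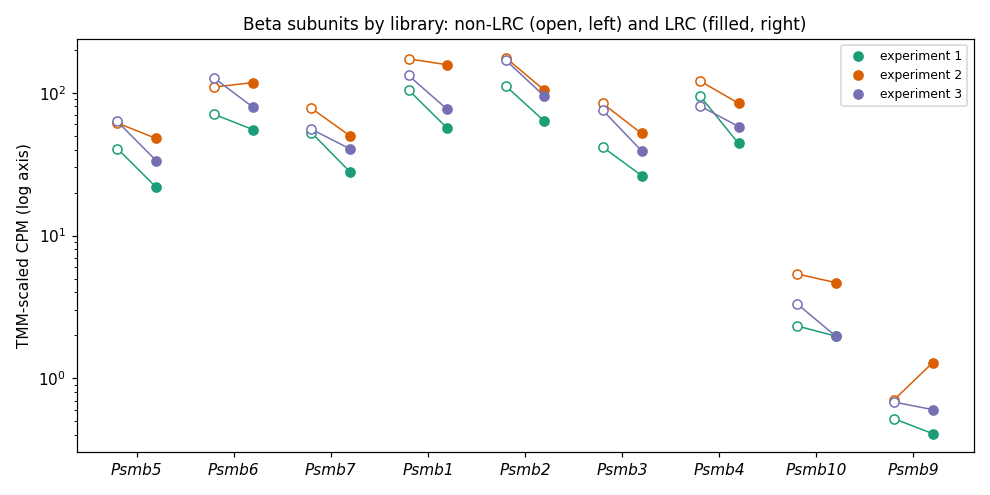
TMM-scaled CPM (log axis) of beta subunit genes in each library, with non-LRCs as open and LRCs as filled points joined by experiment. The constitutive genes Psmb1 to Psmb7 lie between 21.8 and 176 CPM and mostly slope down, while Psmb10 and Psmb9 lie between 0.411 and 5.39 CPM.

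The immunoproteasome genes lay far below the constitutive genes in level, and Psmb8 was not detected in 3 of the 6 libraries. Psmb8 (chr17:34197721-34201454 in GRCm38), which encodes the counterpart of Psmb5, was counted 27, 0 and 9 times in the LRC libraries of experiments 1 to 3 and 0, 0 and 6 times in the non-LRC libraries, and was left out of the test by the filter on low counts. The 0 counts allow levels of up to 0.143 CPM in LRCs of experiment 2, 0.0290 CPM in non-LRCs of experiment 1 and 0.0785 CPM in non-LRCs of experiment 2, for counting error only. Psmb9, the counterpart of Psmb6, was counted 26 to 54 times per library. It measured 0.411, 1.29 and 0.605 CPM in LRCs and 0.523, 0.707 and 0.684 CPM in non-LRCs, with the LRC library the higher of the pair in experiment 2 alone. The interval of its log2 fold change ran from -2.43 to 2.64. Psmb10, the counterpart of Psmb7, measured 1.98, 4.68 and 1.98 CPM in LRCs and 2.33, 5.39 and 3.34 CPM in non-LRCs, lower in LRCs in each pair with overlapping groups. Its log2 fold change was -0.40 (95% interval -1.71 to 0.92, edgeR adjusted p = 0.739), an interval that includes differences in either direction. The sort kept CD45-negative cells, a gate against leukocytes. The summed leukocyte markers given above overlapped between the groups, but single markers differed within experiment 2. There Cd68, H2-Ab1, Cd74 and H2-Aa were higher in LRCs (log2 difference 1.096, 0.985, 2.13 and 2.04). Lyz2, Csf1r and Itgam were lower there, with 0 counts in the LRC library. The part of leukocytes in the immunoproteasome values was not tested.

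Summed per length, Psmb8, Psmb9 and Psmb10 reached 1.67%, 1.86% and 1.22% of the sum of Psmb5, Psmb6 and Psmb7 in LRCs and 1.21%, 1.70% and 1.13% in non-LRCs of experiments 1 to 3. The ratio was higher in the LRC library of each experiment, by 0.46, 0.13 and 0.11 on the log2 scale (mean 0.23 ± 0.20, SD, n = 3). Both sums were lower in LRCs in each experiment. The numerator was 1.95, 4.53 and 2.08 in LRCs and 2.17, 4.64 and 3.13 in non-LRCs on the scale of CPM per 1000 bases, mostly from Psmb10, and the denominator was 117, 243 and 171 in LRCs and 179, 272 and 276 in non-LRCs. Transcripts of the denominator (798 to 1160 bases) are shorter than those of the numerator (1311 to 1628 bases). No length offset enters this ratio beyond the division by length. With the GC content and length offsets, Psmb10 had a log2 fold change of -0.26 and Psmb9 of 0.27. The median of Psmb5, Psmb6 and Psmb7 was then -0.27. Psmb11, the thymus-specific catalytic subunit, had the highest fitted value of all members on 13 to 111 counts per library. It measured 0.950, 1.05 and 0.907 CPM in LRCs and 0.745, 0.340 and 0.744 CPM in non-LRCs. The groups did not overlap, but the interval of the log2 fold change of 0.73 was -1.74 to 3.21 (edgeR adjusted p = 0.744).

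The base of the 19S cap binds the barrel, unfolds the substrate with its ring of ATPases and receives ubiquitin chains. Its 9 genes had a median log2 fold change of -0.21, and of -0.07 without experiment 3. Of the 9, 1 gene (Psmc6) was lower at an unadjusted p below 0.05, beside 9.53% of all genes. Psmc6 measured 63.1, 128 and 72.0 CPM in LRCs and 90.0, 145 and 107 CPM in non-LRCs of experiments 1 to 3, a log2 fold change of -0.43 (edgeR adjusted p = 0.220) that became 0.00 with the offsets. The ATPase genes Psmc2 and Psmc5 had values of -0.09 (95% interval -0.46 to 0.28) and -0.08 (95% interval -0.53 to 0.38), which became 0.13 and 0.19 with the offsets. The scaffold genes Psmd1 and Psmd2 stood at -0.11 and -0.21. The copy Gm5422 shares a stretch of 2726 of the 2961 bases of the Psmd2 transcript at 96.4% identity. Psmd4, a ubiquitin receptor, was among the 5 highest members, with 54.8, 106 and 64.0 CPM in LRCs and 48.9, 69.5 and 67.3 CPM in non-LRCs. The LRC library was the higher of the pair in experiments 1 and 2 but not in experiment 3, and the log2 fold change was 0.23 (95% interval -0.22 to 0.69, edgeR adjusted p = 0.560). It was 0.05 without experiment 2 and 0.41 with the offsets, where its unadjusted p was 0.0317.

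In the lid the median over 8 genes was -0.21, 0.01 with the offsets and -0.03 without experiment 3. Its deubiquitinase gene Psmd14 had the lowest value, with 71.9, 142 and 91.6 CPM in LRCs and 118, 174 and 143 CPM in non-LRCs of experiments 1 to 3. Each LRC library was below its partner. In edgeR the log2 fold change was -0.55 (95% interval -0.92 to -0.18, edgeR adjusted p = 0.141, DESeq2 adjusted p = 0.0315), and -0.15 with the offsets. The 7 scaffold genes ranged from -0.31 (Psmd8) to 0.14 (Psmd3), and none had an unadjusted p below 0.05 in edgeR. Psmd3 measured 86.9, 89.6 and 87.0 CPM in LRCs and 88.8, 65.6 and 87.5 CPM in non-LRCs. Its pairs were level in experiments 1 and 3, and the interval of its log2 fold change was -0.27 to 0.54 (edgeR adjusted p = 0.712). Psmd6, Psmd13, Psmd7, Psmd11 and Psmd12 had values of -0.27, -0.25, -0.17, -0.06 and 0.04, of which Psmd6, Psmd7 and Psmd11 turned above 0 with the offsets.

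The relation of core to cap was also read within each library, where a common shift of all members cancels. The summed level per length of the 14 constitutive core genes was 68.5%, 96.7% and 82.7% of that of the 17 base and lid genes in LRCs of experiments 1 to 3, and 108%, 115% and 106% in non-LRCs. All LRC libraries were below all non-LRC libraries. The log2 ratio was lower in LRCs by 0.66, 0.25 and 0.37, a mean difference of -0.42 ± 0.21 (SD, n = 3). Transcripts of the core are shorter than those of the cap, and no length offset enters this ratio beyond the division by length.

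**Figure D4:**
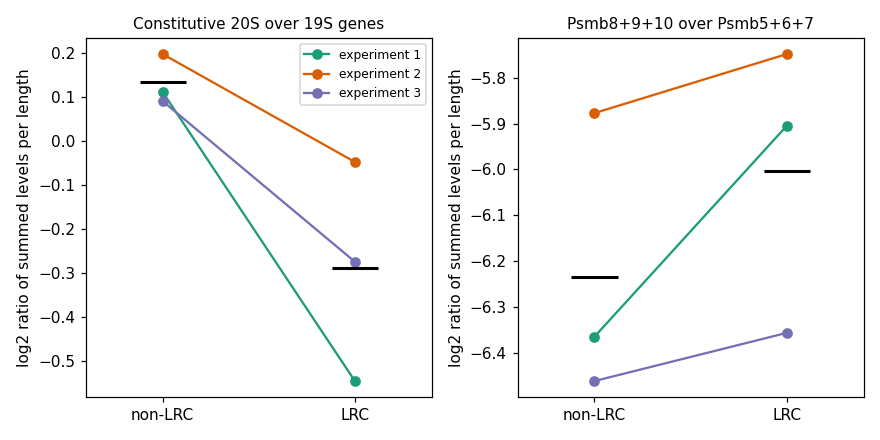
Log2 ratio of summed levels per length in each library, for constitutive core over base and lid genes (left) and for Psmb8, Psmb9 and Psmb10 over Psmb5, Psmb6 and Psmb7 (right), with lines joining experiments and black bars for group means. The core-to-cap ratio is lower in LRCs in all 3 experiments (means -0.29 and 0.13) and the immunoproteasome ratio is higher in each (means -6.00 and -6.23).

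Alternative activators open the barrel without ATP. The genes of PA28 alpha (Psme1), beta (Psme2) and gamma (Psme3) had values of 0.16, -0.35 and -0.15, and of 0.41, 0.02 and -0.12 with the offsets. Psme1 measured 8.09, 23.3 and 11.6 CPM in LRCs and 7.18, 18.1 and 12 CPM in non-LRCs of experiments 1 to 3, so that the pairs differed less than the experiments did (95% interval of the log2 fold change -0.48 to 0.80, edgeR adjusted p = 0.783). Psme2b, a copy, shares 794 of the 962 bases of Psme2 at 99.4% identity. Psme4, which encodes the activator PA200, measured 25.7, 19 and 22.6 CPM in LRCs and 35.6, 36.7 and 27.2 CPM in non-LRCs. All LRC libraries were below all non-LRC libraries. Its log2 fold change of -0.56 (95% interval -1.10 to -0.02, edgeR adjusted p = 0.258) came from the longest member transcript, of 6491 bases, and was -0.60 with the offsets.

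Among the assembly factors, Psmg1 and Psmd10 had the next lowest values after Psma8. Psmg1 encodes a chaperone with which the alpha ring is built. It measured 5.49, 6.83 and 7.61 CPM in LRCs and 10.8, 14.2 and 18.2 CPM in non-LRCs of experiments 1 to 3. The groups did not overlap, the log2 fold change was -1.10 (95% interval -1.80 to -0.40, edgeR adjusted p = 0.125, DESeq2 adjusted p = 0.0117), and the offsets gave -0.72. Its partner chaperone genes Psmg2, Psmg3 and Psmg4 had values of -0.59, -0.33 and -0.72, each with LRCs above their partner in experiment 2.

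Psmd10 encodes gankyrin, a chaperone of the base known also for binding CDK4 and the retinoblastoma protein. It measured 9.33, 8.98 and 9.89 CPM in LRCs and 14.5, 20.8 and 20.3 CPM in non-LRCs of experiments 1 to 3. The LRC libraries lay close together and below all non-LRC libraries. The log2 fold change was -0.96 (95% interval -1.62 to -0.30, edgeR adjusted p = 0.143, DESeq2 adjusted p = 0.0225), and -0.52 with the offsets. The other base chaperone genes Psmd5 and Psmd9 had values of -0.51 and -0.14.

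Psmf1 (chr2:151715812-151744186 in GRCm38), which encodes PI31, a protein first described as an inhibitor of the core, was the only member with an unadjusted p below 0.05 in the upward direction. It measured 26.3, 35.3 and 23.8 CPM in LRCs and 18.2, 15.9 and 18.6 CPM in non-LRCs of experiments 1 to 3. All LRC libraries were above all non-LRC libraries. The log2 fold change was 0.67 (95% interval 0.07 to 1.27, edgeR adjusted p = 0.226), 0.62 with the offsets and 0.44 without experiment 2.

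Proteasome partners without a Psm symbol were read from a list of 13 tested genes. Of these, 8 had values below 0, beside 7690 of all 13728 genes, and the median was -0.12, beside -0.10. At an unadjusted p below 0.05 in edgeR, 2 were lower, beside 9.53% of all genes, and 2 higher, beside 8.89%. The only one past the adjusted threshold in edgeR was Shfm1, which encodes the small lid subunit also called Sem1. It was lower in LRCs, beside 0.379% of all genes. DESeq2 called Shfm1 too (adjusted p = 4.80e-07), beside 6.15% of all genes with an adjusted p. It also called Ddi2 and Adrm1 as higher, beside 6.16%. The levels of Shfm1 were 36.7, 96.8 and 51.8 CPM in LRCs and 99.7, 233 and 91.6 CPM in non-LRCs of experiments 1 to 3. Each LRC library was below its partner, and the groups overlapped through LRCs of experiment 2. The log2 fold change was -1.18 (95% interval -1.61 to -0.75, edgeR adjusted p = 0.0478). It was -0.66 with the offsets (edgeR adjusted p = 0.133) and -1.20 without the block (edgeR adjusted p = 0.489), and without experiment 1 it was -1.05 (edgeR adjusted p = 0.183). Pomp, the maturation factor of the core, stood at -0.40 (edgeR adjusted p = 0.262). Adrm1, a ubiquitin receptor of the base, stood at 0.55 (edgeR adjusted p = 0.163, DESeq2 adjusted p = 0.0498).

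Nfe2l1 encodes the factor known to raise proteasome gene expression when the protease is short, and Ddi2 the protease that processes it. Nfe2l1 measured 405, 192 and 312 CPM in LRCs and 382, 232 and 268 CPM in non-LRCs of experiments 1 to 3, with a log2 fold change of 0.01 (95% interval -0.37 to 0.39, edgeR adjusted p = 0.979). Ddi2 measured 41.0, 35.3 and 30.7 CPM in LRCs and 27.6, 8.19 and 20.7 CPM in non-LRCs. All LRC libraries were above all non-LRC libraries, with the widest gap in experiment 2, and the log2 fold change was 1.06 (95% interval 0.19 to 1.94, edgeR adjusted p = 0.200, DESeq2 adjusted p = 0.0379). Without experiment 2 it was 0.57 (edgeR adjusted p = 0.107).

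In the list of ubiquitin supply and shuttling genes, 15 were tested and none passed the adjusted threshold in edgeR. Their median log2 fold change was 0.13. At an unadjusted p below 0.05, 1 gene was lower, beside 9.53% of all genes. In the other direction 1 gene (Ddi2, which is in both lists) was higher, beside 8.89%. DESeq2 called 1 gene lower, beside 6.15% of all genes with an adjusted p, and 1 (Ddi2) higher, beside 6.16%.

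Of 9 interferon and MHC class I genes, which handle the peptides that proteasomes make, 8 had values above 0, with a median of 0.41. At an unadjusted p below 0.05, 3 were higher in LRCs (Erap1, Tapbp and B2m), beside 8.89% of all genes. None passed the adjusted threshold in edgeR. DESeq2 called Tapbp (adjusted p = 0.0309) and Erap1 (adjusted p = 0.0493) as higher, beside 6.16% of all genes with an adjusted p. The edgeR fit with the offsets called B2m as higher (adjusted p = 0.0444). Tap1, whose start lies next to that of Psmb9 and whose exons overlap it, measured 6.18, 13.7 and 11.5 CPM in LRCs and 6.16, 4.76 and 6.80 CPM in non-LRCs of experiments 1 to 3. Its pair was level in experiment 1 and higher in LRCs in experiments 2 and 3 (log2 fold change 0.76, 95% interval -0.26 to 1.77, edgeR adjusted p = 0.397, and 0.38 without experiment 2). Tap2 measured 9.90, 4.20 and 11.7 CPM in LRCs and 3.37, 4.29 and 4.36 CPM in non-LRCs, level in experiment 2 and higher in the other two (log2 fold change 0.998, 95% interval -0.18 to 2.18, edgeR adjusted p = 0.343). Tap2 passed in limma-voom (adjusted p = 0.0484) and in edgeR without experiment 2 (1.49, adjusted p = 0.0311).

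Promoters were searched because many core genes had lower values together. RefSeq promoter windows of GRCm38.p6, from 250 bases before to 50 bases after the start, matched 40 of the 48 members. The core of the antioxidant response element, TGACNNNGC, a motif that Nfe2l1 and Nfe2l2 are known to bind, was found on either strand in 6 of the 40 members (15%), beside 14.0% of all 27025 genes in the table. CCAAT, the letters that NF-Y is known to bind, was found on either strand in 14 of the 40 (35.0%), beside 41.1% of all genes. Among the constitutive core genes with a window, 2 of 11 held the first motif and 6 of 11 the second, and among those of base and lid 2 of 14 and 4 of 14. The 120 bases before the start are shown for Psmb3 and Psma1, core genes that DESeq2 called lower and that hold CCAAT, for Psmb5 and Psmb6, the catalytic genes that hold the first motif, and for Psmd4, the base gene with the highest value. They run 5′ to 3′ along the gene, and the capitals mark both motifs on either strand.

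Psmb3, chr11:97703314-97703433, plus strand: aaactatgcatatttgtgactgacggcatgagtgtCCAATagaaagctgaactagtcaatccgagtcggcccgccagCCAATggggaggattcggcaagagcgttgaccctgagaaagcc
Psma1, chr7:114276117-114276236, minus strand: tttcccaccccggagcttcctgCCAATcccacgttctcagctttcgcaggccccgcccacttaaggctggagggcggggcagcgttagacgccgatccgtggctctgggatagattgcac
Psmb5, chr14:54617996-54618115, minus strand: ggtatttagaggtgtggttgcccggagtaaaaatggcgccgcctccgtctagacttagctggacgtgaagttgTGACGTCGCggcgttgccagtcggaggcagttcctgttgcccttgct
Psmb6, chr11:70525237-70525356, plus strand: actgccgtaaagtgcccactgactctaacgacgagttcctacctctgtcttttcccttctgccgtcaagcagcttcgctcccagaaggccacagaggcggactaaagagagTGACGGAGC
Psmd4, chr3:95042615-95042734, minus strand: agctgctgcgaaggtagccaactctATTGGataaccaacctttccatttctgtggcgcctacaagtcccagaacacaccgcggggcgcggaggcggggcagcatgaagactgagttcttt

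Psmb3 held CCAAT at both marked places in this stretch and Psma1 at the marked place. Psmb5 and Psmb6 both held the first motif, and in Psmb6 it ended at the last base before the start. The part of either motif in the fitted values was not tested. In Psmd4 the marked letters are CCAAT on the opposite strand.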

How the data were processed

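RNA of sorted cells was amplified with SMART-Seq v4 and made into Nextera XT libraries, which were sequenced as single-end reads by the authors. The deposited raw count table holds whole reads per gene, which the authors made from unambiguously mapped reads with TopHat2 2.0.13, Bowtie2 2.2.1 and HTSeq on mm10 (GRCm38). The annotation and strand setting of the counting are not given in the sources used here, so reads of overlapping genes (13 members overlap another gene in exons) and near-identical copies (8 members share over 50% of their transcript) are uncertain. The deposited tables of normalized and log-transformed counts were not used. All per-sample columns of the count table matched a sample.

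Samples were grouped by their descriptions (High as LRC, Low as non-LRC). The experiment number was used as a block, as the study paired its samples; deviations from group means correlated within experiments 1, 2 and 3 (Pearson r = 0.197, 0.288 and 0.336 over 13728 genes). Cells were pooled within an experiment, and the block takes out the level of each experiment. The p-values of the blocked fits thus rest on how the difference between LRCs and non-LRCs varied over 3 experiments. Counts were filtered with filterByExpr (minimum count 10, minimum total 15) and tested with edgeR 4.0.16 (TMM, glmQLFit and glmQLFTest) in R 4.3.3, with Benjamini-Hochberg adjustment over all 13728 genes. Log2 CPM used a prior count of 2. DESeq2 1.42.0, limma-voom 3.58.1, other filters and scalings, no block, each experiment left out, and offsets for GC content and length (loess) were run as alternatives. The fits were tested on simulated counts. Levels per length divide CPM by the length of the APPRIS principal transcript of GENCODE vM21, which differs from the isoform in use for some genes. Copies were found with blastn (95% identity over 50 bases). The 18943789 to 129559872 counts per library give 1 count the worth of 0.0478 to 0.00856 CPM. Limits for counts of 0 (3 counts) cover counting error only. The 95% intervals come from the blocked edgeR fit and include the spread of the difference between LRCs and non-LRCs over the experiments.

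Values by library are given for Psmb5 to Psmb10, for every member past the adjusted threshold, for the 5 lowest and 5 highest members with at least 10 counts in every library, and for list genes past that threshold or with the 2 largest changes of their list; values of other named genes were chosen after they were seen. Members, lists and tests were chosen with earlier results of these data known. A gene of the ubiquitin list is not reported here.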

Additional observations from a re-analysis of the deposited data

How the results depend on the processing

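The median log2 fold change of the members stayed below 0 in all fits run. It was -0.17 with offsets for GC content and length, against -0.35 in the blocked edgeR fit, and ranged from -0.42 to -0.27 when each experiment was left out. That offset also took the median of the constitutive core to -0.26, of the base to 0.00 and of the lid to 0.012, a change of sign, and without experiment 3 the base median was -0.07 and the lid median -0.03. The number of members past an adjusted p of 0.05 was 0 in the blocked edgeR fit, beside 176 of all genes. It was 13 in DESeq2 (1692 of all genes), 13 in limma-voom (1361) and 3 (Psma1, Psmb2 and Psmb3) with at least 10 counts in every library (751), all lower in LRCs, and 0 to 5 when each experiment was left out. The 5 (Psma1, Psma4, Psmb1, Psmb2 and Psmb5) appeared without experiment 2, which holds the smallest library, where 782 of all genes were called. The number at an unadjusted p below 0.05 was 20 in the blocked fit, beside 2529 of all genes. It was 6 without the replicate block (1289 of all genes) and 9 with the offsets (2123). It was 9 without experiment 1 (1564), 22 without experiment 2 (3725) and 7 without experiment 3 (1729). The cause of these changes was not tested. Of 26 members lower in all 3 experiments the other scalings gave a count within 1.5 times. With the offsets 10 of 47 members turned above 0: Psma5 (0.0236), Psma6 (0.0456), Psmb6 (0.0432), Psmc1 (0.0040), Psmc2 (0.134), Psmc5 (0.195), Psmd6 (0.0888), Psmd7 (0.0775), Psmd11 (0.0146) and Psme2 (0.0178). Psmd12 was -0.0062 without the block. When each experiment was left out, the sign also turned for Psmb9 (-0.262 to 0.340), Psmc2 (-0.179 to 0.0442), Psmc5 (-0.272 to 0.114), Psmd3 (-0.0197 to 0.229), Psmd9 (-0.438 to 0.0526), Psmd11 (-0.202 to 0.0342), Psmd12 (-0.163 to 0.161), Psme3 (-0.354 to 0.204) and Psmg3 (-0.787 to 0.0820). The core-to-cap ratio, added after seeing the data, was lower in LRCs by a mean of -0.41 without members whose transcript is mostly shared, and by -0.51 to -0.31 when each experiment was left out. The immunoproteasome ratio was higher by 0.12 to 0.29 when each experiment was left out. Psmb8 was left out of the test by the filter on low counts. The intervals of Psmb9 (-2.43 to 2.64) and Psmb11 (-1.74 to 3.21) include a difference of the size seen in the core.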
